A study of Mus musculus with 8 samples.

Results

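Cholesterol is built from acetyl-CoA through mevalonate, isoprenoid diphosphates and squalene. The genes of this route share a transcriptional control: when the membranes of the endoplasmic reticulum run low in sterol, SREBP-2 is escorted to the Golgi, cleaved, and activates them together. Growing cells need sterol for new membranes, and the isoprenoid intermediates also serve protein prenylation. The 7 genes described here are Hmgcs1, Mvd, Idi1, Fdps, Fdft1, Sqle and Lss, chosen by name as enzymes of this route, out of 22609 gene symbols in the deposited tables.

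The libraries came from immortalized mouse dental papilla cells, the mesenchyme that gives rise to odontoblasts and dental pulp. The line called iBmp2 fx/fx here (floxed) carries floxed alleles of Bmp2, a bone morphogenetic protein, and iBmp2 ko/ko (knock-out) carries its deletion, so that the groups are 2 established lines of cells and differ in all that sets the lines apart. Total RNA was sequenced at 6, 24, 48 and 72 h of culture, in 1 library per genotype and time, 8 libraries in all (the first time is 6 h in the library labels and 8 h in the design text). Tests were made on 6 libraries, those of 6, 48 and 72 h, the times named in the methods of the study, with 3 libraries per genotype that differ in culture time, and levels are given as CPM, counts scaled to a common library total after TMM normalization.

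Between 25890110 and 32415665 reads were counted on genes per library. The deleted gene gave 1 read of Bmp2 in all, in the floxed library of 24 h, so its level could not check the genotype labels. The library labelled knock-out at 24 h went against its label: of the 291 genes called for genotype in the 6 libraries tested, 251 passed the filter on low counts over all 8 libraries, and of these 248 lay nearer to the floxed mean in it, against 237 in the floxed library of 24 h. Both 24 h libraries are shown apart, as the study's methods do not name this time and the label of 1 of them is in doubt. The mesenchymal markers summed to between 4614 and 7850 CPM in every library, most of it from Vim and Col1a1. Twist1 had 70.3 to 99.0 CPM, Runx2 41.7 to 108 CPM and Lhx6 16.0 to 23.2 CPM over the 8 libraries. Msx1 had at most 7.22 CPM, Msx2 at most 3.89 CPM, Pax9 at most 3.53 CPM, and Lhx8 and Barx1 3 counts or fewer throughout. Alpl, a marker of mineralizing cells, had 12.6 to 61.7 CPM in the floxed libraries and 0.551 to 1.45 CPM in the knock-out libraries of 6, 48 and 72 h. Summed markers reached at most 2.23 CPM for epithelium, 3.63 for endothelium and 0.292 for hepatocytes. They were 26.9 to 45.1 CPM for leukocytes, mostly Cd14 with Ptprc and Itgam at 3 counts or fewer in every library, and 20.5 to 61.6 CPM for Schwann cells and neurons, mostly Tubb3.

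Promoters are shown because sterol-responsive genes are controlled from the bases just before their start, and because the measured members moved together. RefSeq windows of 250 bases before to 50 bases after the start site (GRCm38.p6) were given for 4 of the 7 genes. They lie on the plus strand for Hmgcs1 (chr13:119690101-119690400), Idi1 (chr13:8885356-8885655) and Lss (chr10:76531355-76531654), and on the minus strand for Mvd (chr8:122443373-122443672). Capitals mark the letters TCACNCCAC (the core of a sterol regulatory element), CCAAT (the box bound by NF-Y) and GGGCGG (the GC box bound by Sp1), on either strand and with no overlap between them.
Hmgcs1: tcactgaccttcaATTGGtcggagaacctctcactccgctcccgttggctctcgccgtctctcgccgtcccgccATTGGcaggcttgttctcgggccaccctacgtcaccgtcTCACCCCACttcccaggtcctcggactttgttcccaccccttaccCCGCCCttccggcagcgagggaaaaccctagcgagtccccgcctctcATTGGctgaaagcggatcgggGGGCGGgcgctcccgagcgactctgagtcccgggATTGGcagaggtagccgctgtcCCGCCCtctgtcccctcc
Mvd: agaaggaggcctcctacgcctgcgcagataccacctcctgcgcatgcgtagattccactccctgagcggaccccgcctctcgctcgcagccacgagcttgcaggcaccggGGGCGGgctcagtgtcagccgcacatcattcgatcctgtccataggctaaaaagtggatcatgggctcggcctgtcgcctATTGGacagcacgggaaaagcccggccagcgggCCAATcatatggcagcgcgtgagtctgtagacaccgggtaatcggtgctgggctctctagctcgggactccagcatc
Idi1: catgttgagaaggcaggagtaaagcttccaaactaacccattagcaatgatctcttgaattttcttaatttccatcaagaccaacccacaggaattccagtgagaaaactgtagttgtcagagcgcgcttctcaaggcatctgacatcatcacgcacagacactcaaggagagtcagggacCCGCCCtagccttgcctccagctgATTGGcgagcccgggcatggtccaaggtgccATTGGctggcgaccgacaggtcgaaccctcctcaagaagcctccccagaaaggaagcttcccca
Lss: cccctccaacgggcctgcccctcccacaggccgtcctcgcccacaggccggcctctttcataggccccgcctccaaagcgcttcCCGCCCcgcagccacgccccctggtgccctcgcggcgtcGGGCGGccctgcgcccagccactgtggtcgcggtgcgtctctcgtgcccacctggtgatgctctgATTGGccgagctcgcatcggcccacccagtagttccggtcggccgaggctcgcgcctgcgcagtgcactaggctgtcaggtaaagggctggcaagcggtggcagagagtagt
CCAAT was found in 4 of 4 windows, with 4 matches in Hmgcs1, 2 in Mvd, 2 in Idi1 and 1 in Lss, against 37.4% of all 32851 promoters of the table. GGGCGG was also found in 4 of 4, against 35.7% of all promoters. TCACNCCAC was found in Hmgcs1 alone, starting 137 bases before the start site, against 1.24% of all promoters. These are matches of letters and describe no binding.

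Hmgcs1 encodes the cytosolic synthase that makes HMG-CoA at the entry of the route. It was listed with 0 reads in all 8 libraries. In the mouse assembly NCBIM37 (mm9), to which the authors aligned, both its promoter window and its 17910-base gene body occur as 2 identical copies on contigs outside the chromosomes, and reads that align to several places are not counted by HTSeq. Its level is thus not measured here, and 6 of the 7 members remain.

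The 6 measured members, in the order of the route, lie in mm9 as follows. Mvd, the decarboxylase that makes isopentenyl diphosphate, lies at chr8:124957496-124967322 on the minus strand. Idi1, the isomerase that balances the isopentenyl and dimethylallyl diphosphates, lies at chr13:8884852-8891641 on the plus strand. Fdps, which condenses these to farnesyl diphosphate, lies at chr3:88897514-88905881 on the minus strand. Fdft1, squalene synthase and the first step committed to sterols, lies at chr14:63763990-63796630 on the minus strand. Sqle, the oxygenase that makes squalene epoxide, lies at chr15:59146632-59162747 on the plus strand, and Lss, which folds the epoxide into lanosterol, lies at chr10:75994333-76019883 on the plus strand. The values count reads over the exons of these genes.

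Not all members were counted equally well. Of the 50-base windows of the longest protein-coding transcript, 84.3% for Idi1, 63.2% for Fdps and 22.2% for Fdft1 also occurred elsewhere in the genome, against 0% for Mvd, Sqle and Lss, so the levels of the first 3 are uncertain and may be too low. Levels between genes are therefore compared only among Mvd, Sqle and Lss, as CPM per kilobase. With the length of the longest protein-coding transcript, Sqle ranged from 178 to 483 over the 8 libraries, Mvd from 50.5 to 299.9 and Lss from 20.6 to 172. With this length Sqle was above Mvd, and Mvd above Lss, in 8 of 8 libraries. Per kilobase of all annotated exon bases, Mvd was again above Lss in 8 of 8 libraries, but Sqle was above Mvd in 6 of 8, and below it in the knock-out libraries of 6 and 48 h.

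The members were lowest after 72 h of culture in both lines. Mvd had 384, 375 and 88.8 CPM at 6, 48 and 72 h in the floxed cells, and 505, 528 and 114 CPM in the knock-out cells. Idi1 had 26.1, 24.8 and 7.88 CPM in the floxed cells, and 15.2, 33.3 and 5.86 CPM in the knock-out cells. Fdps had 262, 228 and 67.4 CPM in the floxed cells, and 253, 204 and 54.3 CPM in the knock-out cells. For each of these 3 enzymes of the isoprenoid branch, both 72 h libraries lay below all libraries of the other times.

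The enzymes of the squalene and lanosterol steps were also lowest at 72 h. Fdft1 had 291, 283 and 88.8 CPM at 6, 48 and 72 h in the floxed cells, and 336, 336 and 101 CPM in the knock-out cells. Sqle had 1260.2, 1331 and 601 CPM in the floxed cells, and 1017, 1053 and 489.9 CPM in the knock-out cells. Lss had 392, 463 and 96.2 CPM in the floxed cells, and 405, 803 and 123 CPM in the knock-out cells. Both 72 h libraries were again the lowest for each gene, while the knock-out library of 48 h held the highest level of Lss.

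**Figure D1:**
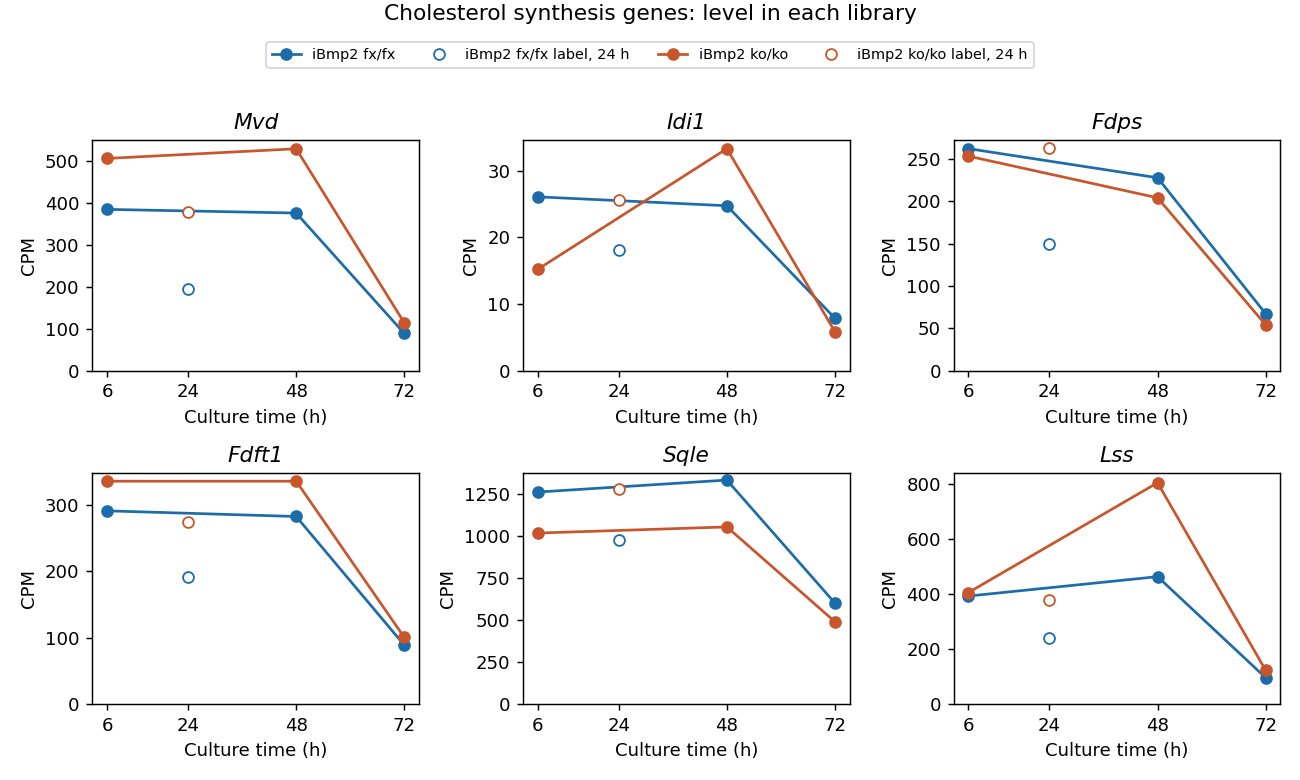
Level of each measured member in CPM (linear axis from 0) against culture time in hours, 1 point per library, with lines joining the 6, 48 and 72 h libraries of a genotype and open points for the 24 h libraries. In both lines the 72 h point is the lowest for all 6 genes, and at 24 h the open floxed point lies below the floxed points of 6 and 48 h.

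The change with culture time was tested as a slope on log2 time shared by both genotypes. The fitted log2 change from 6 to 72 h was -1.11 for Mvd, -0.53 for Idi1, -1.30 for Fdps, -0.98 for Fdft1, -0.62 for Sqle and -0.55 for Lss, with standard errors from 0.44 to 0.98. By the quasi-likelihood test of edgeR, adjusted by Benjamini-Hochberg, 0 of 6 members passed an adjusted p of 0.05 (adjusted p from 0.288 to 0.748), as did 0% of the 13121 genes tested. At an unadjusted p under 0.05 edgeR gave 0 members and 2775 genes. DESeq2 called 640 genes higher and 338 lower after adjustment, 0 of them members, and had 3200 genes and 1 member unadjusted. For limma these were 0 genes and 0 members adjusted, and 2919 genes and 1 member unadjusted. An alternative slope on hours gave -1.77 for Mvd, -1.14 for Idi1, -1.85 for Fdps, -1.48 for Fdft1, -0.93 for Sqle and -1.33 for Lss. It called 0 of 6 members (adjusted p from 0.0966 to 0.412 from edgeR), and 4 of the 13121 genes. On the log2 scale the levels of 6 and 48 h lay nearer to each other than to those of 72 h in both lines, for each member.

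With culture time as separate levels in place of a slope, all 6 measured members fell from 6 to 72 h. In that fit 22.3% of the 13121 genes were called lower at 72 h. The slopes on log2 time and on hours, given above, called 0 of 6 members, so these calls depend on fitting separate levels. Mvd fell by 2.16 on the log2 scale (standard error 0.14, adjusted p = 0.000333 by the quasi-likelihood test of edgeR) and Fdps fell by 2.13 (standard error 0.14, adjusted p = 0.000333 from edgeR). Lss fell by 1.92 (standard error 0.19, adjusted p = 0.000706 from edgeR) and Fdft1 fell by 1.76 (standard error 0.13, adjusted p = 0.000362 from edgeR). Idi1 fell by 1.60 (standard error 0.29, adjusted p = 0.00507 from edgeR). Sqle fell least, by 1.10 (standard error 0.14, adjusted p = 0.00136 from edgeR). Each time had 2 libraries, 1 per genotype.

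The falls were also large against the other genes. A fitted value as low as that of Mvd was found for 2.07% of the genes tested, of Fdps for 2.21%, of Lss for 2.97%, of Fdft1 for 3.67%, of Idi1 for 4.72% and of Sqle for 10.4%. The median over the members was -1.84, and over all genes -0.01. Within the floxed cells the members were between 2.10-fold and 4.32-fold lower at 72 h than at 6 h. Within the knock-out cells they were between 2.08-fold and 4.67-fold lower, so that the ranges of the lines overlapped. Without the knock-out library of 72 h, 5 of 6 members passed and Idi1 did not (log2 difference -1.45, adjusted p = 0.0542 from edgeR), where 929 of 13373 genes were called lower.

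The drop lay between 48 and 72 h. In a comparison added after the data were seen, 6 of 6 members were called lower at 72 h than at 48 h, with log2 differences from -1.14 for Sqle to -2.52 for Lss, where 16.3% of the genes were called lower. Between 6 and 48 h, also added, 0 of 6 members were called by edgeR's quasi-likelihood test, where 1.85% of the genes were called in either direction. At an unadjusted p under 0.05 that comparison gave 3077 genes and 1 member, Lss, with a log2 difference of 0.60 (standard error 0.19, adjusted p = 0.125 from edgeR).

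**Figure D2:**
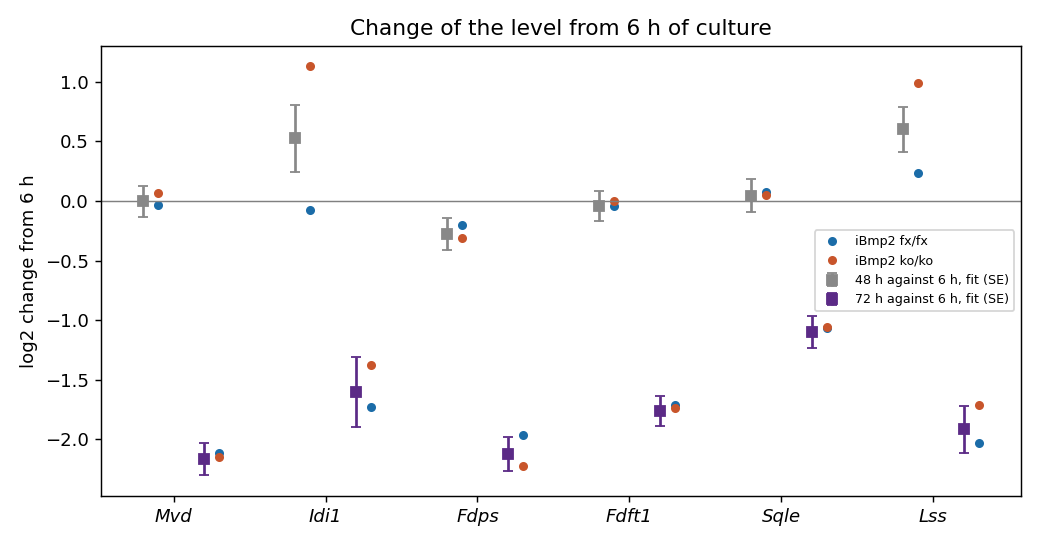
Log2 change from 6 h for each member, with squares and bars for the fit over 6 libraries and its standard error, and small points for each line on its own. The changes to 72 h lie between -1.05 and -2.22 in the single lines, and those to 48 h lie around 0 except for Idi1 and Lss in the knock-out cells, at 1.13 and 0.99.

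The deletion of Bmp2 was compared over the same 6 libraries. No member passed the main test for genotype, which has no block of culture time, while 1 (Mvd) passed with such a block, as given below. Mvd averaged 283 ± 168 CPM in the floxed cells and 382 ± 233 CPM in the knock-out cells (SD, n = 3), with a log2 fold change of 0.45 (standard error 0.70). Idi1 averaged 19.6 ± 10.2 and 18.1 ± 13.95 CPM (SD, n = 3), with a log2 fold change of -0.10 (standard error 0.67). Fdps averaged 186 ± 104 and 171 ± 104 CPM (SD, n = 3), with a log2 fold change of -0.11 (standard error 0.66). The standard error exceeded the difference for all 3, and the 3 libraries of a genotype differ in culture time.

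The later enzymes gave values of the same size. Fdft1 averaged 221 ± 114 CPM in the floxed cells and 257 ± 136 CPM in the knock-out cells (SD, n = 3), with a log2 fold change of 0.24 (standard error 0.58). Sqle averaged 1064 ± 403 and 853 ± 315 CPM (SD, n = 3), with a log2 fold change of -0.31 (standard error 0.41). Lss averaged 317 ± 194 and 444 ± 342 CPM (SD, n = 3), with a log2 fold change of 0.50 (standard error 0.75). By the quasi-likelihood test of edgeR, adjusted by Benjamini-Hochberg, 0 of 6 members were called (adjusted p from 0.815 to 0.972), where 2.22% of 13121 genes were called in either direction. At an unadjusted p under 0.05, edgeR, DESeq2 and limma each gave 0 members, against 1836, 2104 and 1834 of the 13121 genes. The genotypes overlapped in CPM for all 6 members, while they did not overlap for 19.7% of 13053 genes.

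Within a culture time the direction was steadier. Mvd, Fdft1 and Lss were higher in the knock-out library at 6, 48 and 72 h, Fdps and Sqle were lower at these 3 times, and Idi1 was lower at 6 and 72 h and higher at 48 h. The log2 ratio of the knock-out to the floxed library ranged from 0.36 to 0.49 for Mvd, from 0.18 to 0.25 for Fdft1 and from 0.05 to 0.80 for Lss. It ranged from -0.34 to -0.29 for Sqle, from -0.31 to -0.05 for Fdps and from -0.78 to 0.43 for Idi1. The enzymes thus differed in sign among themselves, and the summed level of the 6 was 2616, 2704 and 949.97 CPM at 6, 48 and 72 h in the floxed cells and 2531, 2958 and 888 CPM in the knock-out cells.

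With culture time as a block, which pairs the libraries of a time, 1 of 6 members was called. Mvd was higher in the knock-out cells by 0.41 on the log2 scale (standard error 0.11, adjusted p = 0.0302 by the quasi-likelihood test of edgeR), where 11.3% of the genes were called higher and 11.4% lower. Over all 8 libraries the blocked difference of Mvd was 0.55 (adjusted p = 0.0981 from edgeR), in a fit that called 11 of 13053 genes higher and 33 lower, and without the 72 h libraries, an alternative added after the data were seen, it was 0.44 (adjusted p = 0.143 from edgeR), where 686 of 13284 genes were called higher. At an unadjusted p under 0.05 the blocked fit over 6 libraries gave 3 of 6 members (Mvd, Sqle and Lss) and 4964 of 13121 genes. The genes tested on chromosome 8, where Mvd lies, had a median log2 difference of 0.10 in the blocked fit.

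Whole chromosomes differed between the lines, and the members stood beside that background. The median log2 fold change of genotype was 0.30 over 623 genes of chromosome 10, where Lss lies, and -0.39 over 633 genes of chromosome 3, where Fdps lies. It was 0.19 on chromosome 14 with Fdft1, 0.11 on chromosome 8 with Mvd, -0.04 on chromosome 13 with Idi1 and -0.17 on chromosome 15 with Sqle. The part of the chromosome in the difference of each member was not tested.

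**Figure D3:**
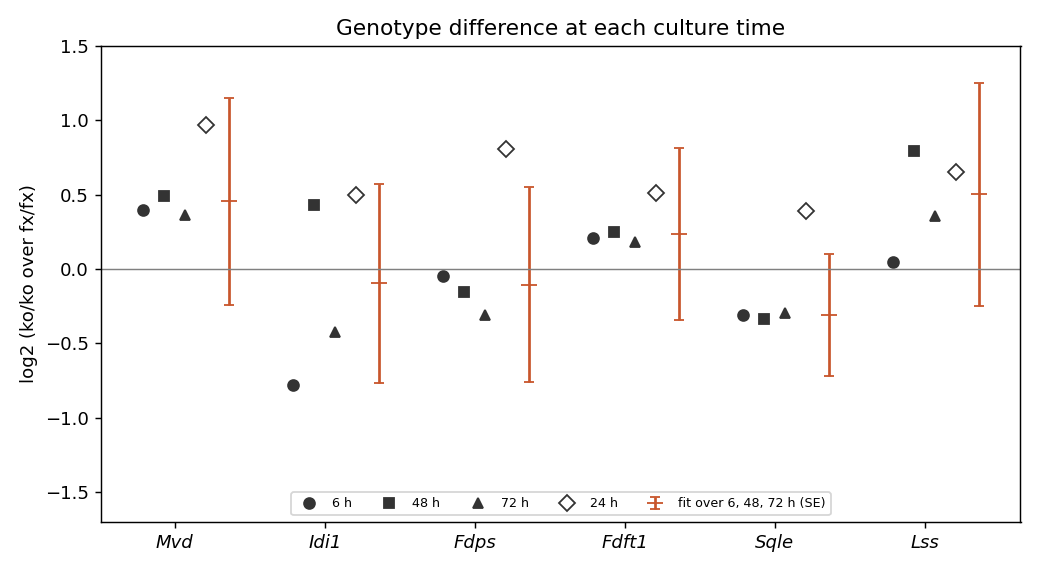
Log2 ratio of the knock-out to the floxed library for each member at 6, 48 and 72 h (filled) and 24 h (open), with the fitted difference over 6, 48 and 72 h and its standard error in orange. The filled points of Mvd, Fdft1 and Lss lie above 0 and those of Fdps and Sqle below it, all within 0.80 of it, and the open points lie above 0 for 6 of 6 members.

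Whether the time course differed between the lines was tested as an interaction of genotype with log2 culture time. The fitted difference of the log2 changes from 6 to 72 h was 0.03 for Mvd, 1.03 for Idi1, -0.22 for Fdps, -0.02 for Fdft1, -0.06 for Sqle and 0.70 for Lss. The standard errors ran from 1.04 for Sqle to 2.21 for Lss, so differences of this size could not be resolved. By edgeR's quasi-likelihood test 0 of 6 members were called, as were 0% of all genes. At an unadjusted p under 0.05 the same test gave 63 genes and 0 members, and DESeq2 and limma also gave 0 members.

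At 24 h there was 1 library per genotype label, and no test was made. In the floxed library, Mvd had 193 CPM (exact 95% Poisson interval 188 to 199), Sqle 976 (965 to 988) and Lss 241 (235 to 247), and these intervals cover counting error only. Idi1 had 18.1 CPM, Fdps 150.1 and Fdft1 192 in this library. All 6 lay below the floxed libraries of 6 h and 48 h, with a median log2 change of -0.65 from 6 to 24 h and of 0.58 from 24 to 48 h.

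The library labelled knock-out at 24 h had 378 CPM for Mvd (371 to 385), 1278 for Sqle (1265 to 1292) and 379 for Lss (372 to 387). Idi1 had 25.5 CPM, Fdps 263 and Fdft1 274. All 6 were higher than in the floxed library of 24 h, with a median log2 ratio of 0.58, against 0.02 over all genes. On the log2 scale these values were nearer to the floxed than to the knock-out mean of 6 and 48 h for 6 of 6 members. Against the means of 6, 48 and 72 h, 3 members were nearer to the floxed mean (Idi1, Fdps and Sqle) and 3 to the knock-out mean (Mvd, Fdft1 and Lss). With the label of this library in doubt, the difference at 24 h is one between 2 libraries.

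The other genes of the route moved with the members. Of 14 other mevalonate and sterol enzymes, 13 fell from 6 to 72 h by edgeR's test at an adjusted p of 0.05 and 0 rose, with a median log2 difference of -1.56, where 22.3% of all genes fell and 19.6% rose. The exception was Lbr, a sterol reductase that also anchors lamin at the nuclear envelope, with -0.12. Tm7sf2, a sterol reductase of the same step, fell by 3.12 (standard error 0.33) and Mvk, mevalonate kinase, fell by 1.51 (standard error 0.14). Their adjusted p values from edgeR were 0.000772 and 0.000594. The list was chosen for its role in the route, with earlier results of these data known, and holds none of the 7 members.

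The lists around the route had smaller medians, and their counts stand against the same 22.3% of all genes that fell and 19.6% that rose. Of 7 genes for sterol sensing and SREBP processing, 4 fell from 6 to 72 h and 0 rose, with a median of -0.37, and Srebf1 and Srebf2, which encode the SREBP factors, fell by 0.87 and 0.80. Of 11 genes of fatty acid synthesis, 10 fell and 0 rose, with a median of -0.93. Of 11 genes for uptake, storage and transport of sterol, 7 fell and 1 rose, with a median of -0.54, and the one that rose was Soat1, which esterifies cholesterol for storage, by 0.71 (adjusted p = 0.0163 from edgeR). Of 10 genes that use isoprenoids, 1 fell, namely Rce1, a protease of prenylated proteins, by 0.64, and 1 rose, with a median of 0.13, shares no higher than those over all genes.

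Most proliferation genes went the other way. Of 10 such genes, 6 rose and 1 fell from 6 to 72 h, with a median of 0.59, where 19.6% of all genes were called higher. The gene that fell was Pcna, by 0.38 (adjusted p = 0.0387 from edgeR), and Mcm2 and Mcm5 had 0.03 and -0.08. Cdk1, the mitotic kinase, rose by 0.76 (adjusted p = 0.00348 from edgeR) and Aurkb, the mitotic kinase of the chromosomal passenger complex, had 0.04 (adjusted p = 0.832 from edgeR). The summed level of the 10 was 2270.1 and 3284 CPM at 6 and 72 h in the floxed cells, and 2215 and 3385 CPM in the knock-out cells. Their part in the change of the members was not tested, and in such bulk RNA fewer cells of a state and less RNA per cell cannot be told apart.

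**Figure D4:**
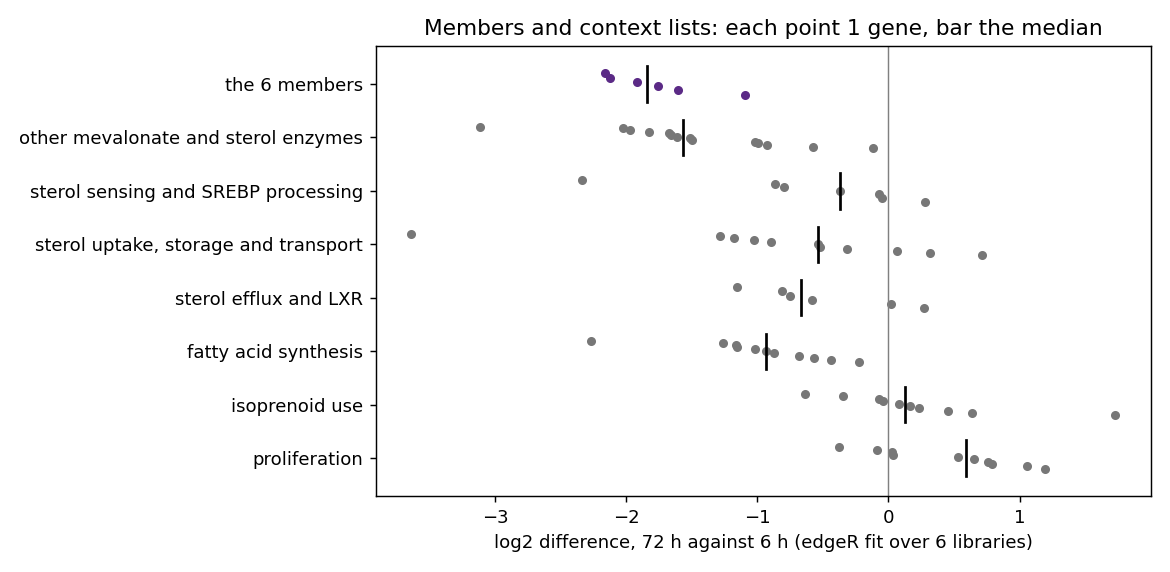
Log2 difference between 72 h and 6 h from the edgeR fit over 6 libraries for each tested gene of the members and of 7 context lists, with a bar at the median of each list. The members and the other sterol enzymes have medians of -1.84 and -1.56, and the proliferation genes have one of 0.59.

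In the comparison of genotypes, 0 of the 14 other sterol enzymes were called by edgeR's test without the block, with a median of 0.20, and with the block 3 were higher and 1 was lower, where 11.3% of all genes were higher and 11.4% lower. At an unblocked adjusted p of 0.751 from edgeR, Mvk had a log2 fold change of 0.51 (standard error 0.53), and with the block it was higher by 0.48 (adjusted p = 0.0237 from edgeR). Tm7sf2 had 0.84 (standard error 1.00) without and 0.56 with the block (adjusted p = 0.788 and 0.142 from edgeR). Of the 7 genes of sterol sensing, 0 were called without and 2 were lower with the block, against the same shares. Srebf1 was lower by 0.46 in the blocked fit (adjusted p = 0.017 from edgeR), and Srebf2 had -0.34 (adjusted p = 0.0618).

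The course over the 8 libraries was shared among the members. Pearson's r of log2 CPM between pairs of members ranged from 0.83 for Sqle and Lss to 0.99 for Mvd and Fdft1. Against the mean of the members, which includes the gene compared, r ranged from 0.94 for Sqle to 0.99 for Fdft1. These correlations describe 8 libraries that share the low 72 h levels. The 10 genes with the course most like the mean of the members, out of 13047, had r from 0.988 to 0.996. Cyp51, the demethylase that follows Lss in the route, came first, with 1410.2 and 516 CPM at 6 and 72 h in the floxed cells and 1303 and 468 CPM in the knock-out cells.

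Among the others, Sc4mol, the sterol methyl oxidase, belongs to the list of sterol enzymes. Acly, which makes cytosolic acetyl-CoA from citrate, and Scd2, a fatty acid desaturase, belong to the list of fatty acid synthesis, and Aacs, which activates acetoacetate for lipid synthesis, belongs to no list. Tcn2, a vitamin B12 carrier, Dnase2a, a lysosomal nuclease, Peli3, a ubiquitin ligase, and Pla2g2e, a secreted phospholipase, were also among them. Pla2g2e had at most 12.7 CPM. Over the 6 libraries of 6, 48 and 72 h, 4 of the 10 were again among the first 10.

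Exons of neighbouring genes overlap those of 2 members. Ctsb, which encodes cathepsin B on the opposite strand, shares 769 exon bases with Fdft1, 26.9% of its exon bases, and had a log2 difference of -0.50 between 72 and 6 h (adjusted p = 0.0539 from edgeR), against -1.76 for Fdft1. The lincRNA 4930483K19Rik, on the strand opposite to Lss, shares 381 exon bases with it, 3.53% of the exon bases of Lss. The strand setting of the counting is not given in the sources used here, so that reads from overlapping exons cannot be told apart.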

How the data were processed

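Libraries of total RNA from the floxed and the knock-out line were sequenced as 50-base reads, single-end in the labels and paired in the study's methods, so whether a count is a read or a pair is not settled. Per the labels and the study's methods, the authors aligned the reads to mm9 with TopHat2, counted them with HTSeq and deposited raw counts per gene symbol and per lncRNA symbol for each library. The submitters' processing notes name CASAVA 1.8.2, TopHat2 2.0.8b and HTSeq. Neither the annotation nor the strand setting is given in the sources used here. HTSeq leaves out alignments to several places, and its counter for them held 41.3% to 49.6% of all entries in its tables. A share of entries need not be a share of reads. The 5 summary counters were left out, and 21430 of 22609 symbols matched GENCODE M1 by name.

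Counts were fitted across all genes in R 4.3.3 with edgeR 4.0.16 (TMM, filterByExpr with at least 10 counts and 15 in total, quasi-likelihood test, Benjamini-Hochberg adjustment over all genes, called at 0.05). DESeq2 1.42.0 and limma 3.58.1 were alternatives, as were other scalings, filters, library sets and a block of culture time. The scripts were tested on simulated data. CPM used TMM factors over 8 libraries, and log2 CPM a prior count of 2. A level of 3 counts is 0.0929 to 0.124 CPM. Replicates are libraries of different culture times from 1 line each, so p-values measure the spread between these libraries. Culture time pairs the libraries by the labels: deviations from the genotype means correlated at 0.72, 0.54 and 0.84 within 6, 48 and 72 h.

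Copies of transcript windows were sought in the NCBIM37 genome with minimap2 2.31 and exact matching. Genes named are the members, the 10 most like them, Bmp2, and of each list up to 4 called for genotype or otherwise the 2 with the largest absolute fold change, and 2 genes so picked are not reported here. Lbr, Nr1h2, Pcna, Mcm2, Mcm5 and the genes with overlapping exons were chosen after their values were seen. Members and lists were chosen with earlier results of these data known.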

Additional observations from a re-analysis of the deposited data

Results flagged for a closer look

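In 2 of the 12 groups of 4 libraries examined for the members (6 genes in each genotype, log2 CPM), the lowest library stood far from the others by Dixon's criterion. Both were the knock-out library of 72 h. For Fdps its gap to the next library was 0.841 of the range of the group, and for Fdft1 it was 0.831. Chance alone marks about 1 in 20 such groups. The 4 libraries of a group are 4 culture times, so the criterion here marks the low level at 72 h reported above, and the knock-out group includes the 24 h library whose label is in doubt. The 72 h library was the lowest of its genotype for all 6 members in both lines.

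The lncRNA table, which no comparison above used, held reads for 4930483K19Rik, the lincRNA opposite to Lss, up to a count of 2685 in the knock-out library of 48 h. It had 42.7, 53.7 and 9.06 CPM at 6, 48 and 72 h in the floxed cells and 39.3, 87.0 and 10.04 CPM in the knock-out cells, and 25.6 and 42.7 CPM in the 24 h libraries labelled floxed and knock-out. Lss had its highest level in the same library. Whether these reads came from Lss was not tested.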

How the results depend on the processing

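The number of members called for genotype was 0 in each direction in the main comparison and in its alternatives, except with culture time as a replicate block over 6 libraries, where 1 (Mvd) was higher with edgeR and 1 with limma. The block changed no other call of a member. Some of these alternatives called few genes at all, and their 0 says nothing about the members: 0 of 13053 over all 8 libraries, 3 higher and 11 lower without the floxed library of 48 h, and 3 higher and 6 lower without the knock-out library of 48 h. The direction of Mvd and Sqle held under all 20 alternatives. Idi1 and Fdps changed sign under 5 of them, Fdft1 under 3 and Lss under 1, always without a call. The adjusted p of Mvd ran from 0.0262 to 0.996 over the alternatives, and leaving out 1 library moved its log2 fold change between 0.02 and 0.87 and that of Sqle between -0.60 and -0.04. For culture time, the slope called 0 members under each alternative with a slope, where edgeR and limma called at most 4 genes except without the knock-out library of 48 h (133 higher and 63 lower), and 6 were called lower with levels, both for 72 h against 6 h and for 72 h against 48 h. That difference between 72 and 6 h was called for 6 of 6 members under other scalings, filters, tools and library sets, and for 5 to 6 with 1 library left out. The comparison of 72 with 48 h and the checks of the difference between 72 and 6 h were added after the data were seen. Leaving out 1 library moved the fitted slope over 6 to 72 h strongly: without the floxed library of 72 h, Idi1 went from -0.53 to 0.00102 and Lss from -0.55 to 0.0375, and over the libraries left out in turn they ran down to -1.32 each. The other 4 members kept their direction. The interaction gave 0 called members under each alternative, but its fitted values could not be pinned down with 1 library left out, running from -12.8 to 11.5 for Mvd and from -16.1 to 13.5 for Lss. Without the knock-out library of 6 h, 5 of 6 members had an unadjusted p under 0.05 for it, with adjusted p from 0.250 to 0.492 over the 6 (edgeR), against 1614 of 13332 genes. The lowest count of a measured member was 142, for Idi1.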

Other observations

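Most genes of sterol efflux and LXR, the nuclear receptor that senses oxysterols, were lower in the knock-out cells where culture time was a block. Of 6 such genes, 5 were lower and 0 higher in that fit with edgeR, where 11.4% of all genes were called lower, and without the block 0 were called (median log2 fold change -1.21, and 0.03 over all genes). Abcg1, a sterol exporter, had 7.43, 4.09 and 4.19 CPM at 6, 48 and 72 h in the floxed cells and 2.03, 1.04 and 1.36 CPM in the knock-out cells. Its log2 fold change was -1.82 (standard error 0.41, adjusted p = 0.0888 from edgeR), and the adjusted p was 0.00152 with the block. Nr1h3, which encodes LXR alpha, had 4.17, 4.46 and 3.27 CPM in the floxed cells and 1.34, 2.56 and 0.661 CPM in the knock-out cells (adjusted p = 0.0159 from edgeR with the block). The gene not called was Nr1h2, which encodes LXR beta, with a log2 fold change of 0.17 without the block. The library labelled knock-out at 24 h had 6.53 CPM of Abcg1 and 3.79 CPM of Nr1h3, within the range of the floxed libraries.

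The lists of neighbouring metabolism had few calls in the blocked fit, where 11.3% of all genes were called higher and 11.4% lower, and shares near these are no result about a list. It called 1 of 11 genes of fatty acid synthesis lower, namely Me1, the malic enzyme that supplies NADPH, by 0.69 (adjusted p = 0.00593 from edgeR). Elovl6, a fatty acid elongase, had -0.37 (adjusted p = 0.0599). It called 2 of 10 genes of isoprenoid use higher, with Rce1 higher by 0.62 (adjusted p = 0.00832 from edgeR) and Coq2, the prenyl transferase of ubiquinone synthesis, higher by 0.56 (adjusted p = 0.0408 from edgeR). Of 11 genes of sterol uptake, storage and transport, 1 was called higher and 0 lower, and of 10 proliferation genes 0 were called. Soat1 had a log2 difference of -0.39 (adjusted p = 0.089 from edgeR with the block).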
